A study of Drosophila melanogaster with 8 samples.

Results

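Chemoreceptor genes of 3 families were examined in the pupal central nervous system (CNS) of Drosophila: the odorant receptors (Or), the gustatory receptors (Gr) and the ionotropic receptors (Ir). A gene was taken as a member when its symbol in the deposited expression tables was Or, Gr or Ir followed directly by a digit. This gave 179 of the 13989 genes listed, with 59 Or, 61 Gr and 59 Ir genes, and no expression value was used to choose them. The question was which of these sensory genes were detected in the CNS, and how their levels stood in animals with neuronal knockdown of dStim, the gene for the endoplasmic reticulum calcium sensor of store-operated calcium entry.

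Insects detect odours and tastants through receptor neurons in the antenna, maxillary palp, mouthparts, legs and other peripheral organs, whose axons project into the brain and ventral ganglia. Each olfactory neuron generally makes 1 or a few ligand-binding Or proteins, which form ion channels with a shared co-receptor, Orco. Gr proteins serve sugar, bitter and carbon dioxide sensing and, in some members, internal nutrient, light and warmth sensing, and Ir proteins are relatives of ionotropic glutamate receptors that work with the broadly expressed co-receptors Ir8a, Ir25a and Ir76b. The receptor transcripts are made in cell bodies that lie mostly outside the CNS.

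RNA was sequenced in 4 groups of 2 samples, each sample a pool of about 10 dissected CNS. The wild type groups were Canton S at 36 h and 72 h after puparium formation (APF). The knockdown groups carried ElavC155GAL4, a pan-neuronal driver, with dStimRNAi and tubulinGAL80ts, a temperature-sensitive repressor that confines the knockdown to periods at raised temperature. The 36 h knockdown group was collected after 24 h of knockdown, and the 72 h group after the same 24 h followed by 36 h of recovery. Driver, repressor and RNAi transgenes were absent from the wild type groups, so knockdown, transgenes and strain background cannot be told apart.

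The values were FPKM (fragments mapped to a transcript, scaled to its length and to the size of the library), given once per gene and group over both replicates. No replicate error, interval or test could therefore be computed, the depth of the libraries is unknown from these values, and every ratio below describes a pair of pooled values. In bulk tissue, fewer expressing cells and less RNA per cell cannot be told apart. The targeted gene Stim stood at 42.2 and 33.9 FPKM in the wild type and knockdown groups of 36 h, a ratio of 0.80, and at 38.6 and 31.3 in those of 72 h, a ratio of 0.81. As a check of the CNS label, all 7 listed neuronal marker genes were at 1 FPKM or more, with a summed level of 885 to 1605 over the groups, and the glial gene repo was at 37.5 to 62.0 FPKM. Markers of other tissues were present: the sum of 9 muscle genes was 142 and 76.5 FPKM at 36 h and 1036 and 812 at 72 h in wild type and knockdown, that of 10 photoreceptor genes was 195, 213, 498 and 664, and that of 7 cuticle and tracheal genes was 406, 286, 716 and 267. Of genes that serve or specify chemosensory neurons, 5 of 10 listed accessory genes and 7 of 8 listed transcription factors reached 1 FPKM in some group. Among those that did not were lush, an odorant-binding protein of trichoid sensilla, at no more than 0.19, Os-E, another such protein, at no more than 0.37, and the olfactory proneural gene amos at no more than 0.10 FPKM.

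Most chemoreceptor genes were close to absent from the CNS libraries. An FPKM of 1 or more was reached by 20 members in wild type at 36 h, beside 66.5% of all genes, by 18 in knockdown at 36 h, beside 66.3%, by 23 in wild type at 72 h, beside 68.3%, and by 21 in the recovered group at 72 h, beside 64.1%. In at least 1 group, 27 of the 179 members (15.1%) reached that level, against 74.8% of all genes. The median member lay at 0.0765, 0.0490, 0.0574 and 0.0469 FPKM in the 4 groups, against 8.99, 8.83, 6.30 and 5.75 for all genes. At the other end, 17 members were listed at 0 in every group, 3 Or, 7 Gr and 7 Ir genes, and a further 52 stayed under 0.1 FPKM. Between 0.1 and 1 FPKM lay 83 members, in bins of 61 under 0.5 and 22 from 0.5.

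**Figure D1:**
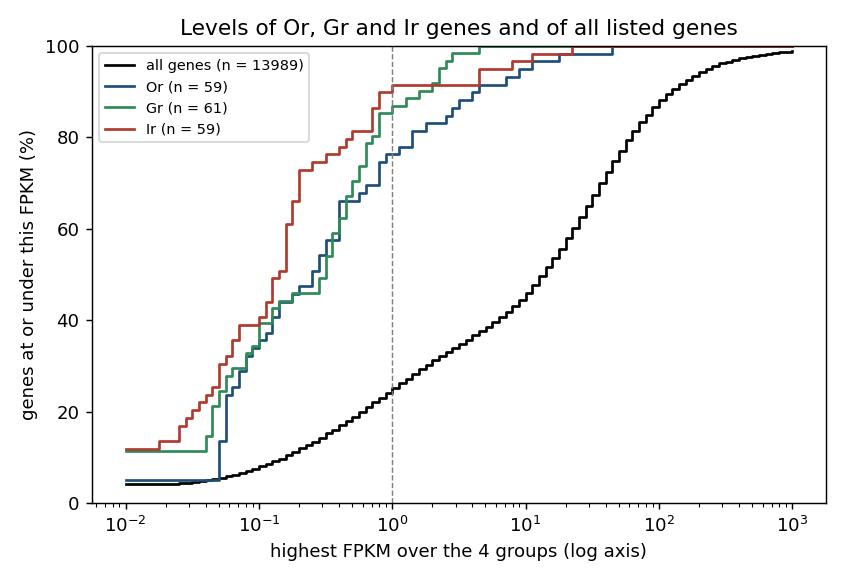
Share of genes (%) at or under each value of the highest FPKM over the 4 groups, on a log axis, for all 13989 listed genes and for the Or, Gr and Ir families. The 3 family curves lie left of the curve of all genes, and 27 of 179 members lie right of the dashed line at 1 FPKM.

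The detected members were spread over the families and the genome. They comprised 14 of the 59 Or, 8 of the 61 Gr and 5 of the 59 Ir genes, and 3 lay on chromosome X, 5 on 2L, 6 on 2R, 6 on 3L and 7 on 3R. At 1 FPKM or more in all 4 groups were 16 members (8.94%), beside 8312 of the 13989 genes. In the 36 h groups alone there were 3 (Gr47b, Gr94a and Or67d). In the 72 h groups alone there were 6 (Gr28b, Gr59d, Or10a, Or45a, Or82a and Or85d). The patterns of 1 age alone were not counted over all genes. The summed FPKM of all members was 138, 136, 130 and 118, or 0.0218%, 0.0219%, 0.0204% and 0.0191% of the sum over all genes. A few genes made up most of it, since Or43b alone gave 31.4%, 30.3%, 26.6% and 17.2% of the member sum and the top 5 members of each group 55.0%, 61.1%, 56.3% and 53.8%.

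Among the odorant receptors, the co-receptor came first by function but not by level. Or83b, now called Orco (chr3R:1232903-1236191 in the dm3 build), stood at 1.48 FPKM in the wild type and 2.28 in the knockdown group at 36 h, and at 3.60 and 4.18 at 72 h. Knockdown values were above wild type at both ages, by 1.54-fold and 1.16-fold, and both 72 h values were above both 36 h values. No other listed gene lay within 1 kb of it.

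Or63a and Or45b, receptors known from the larval olfactory organ, had the highest 72 h levels after Or43b. Or63a (chr3L:2961534-2963788) was at 1.36 and 1.78 FPKM at 36 h and at 14.6 and 17.6 at 72 h in wild type and knockdown. Its nearest neighbour CG34025 stayed between 0.53 and 0.99 FPKM in all groups. Or45b (chr2R:5447103-5448573) was at 2.73 and 1.63 FPKM at 36 h and at 10.998 and 11.137 at 72 h. Age separated the groups for both genes, while wild type and knockdown at the same age lay within 1.31-fold for Or63a and within 1.01-fold at 72 h for Or45b. At 36 h, Or45b was at 0.60 of wild type in the knockdown.

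Or43b, a receptor of an antennal basiconic neuron, had the highest level of any member in every group, at 43.2, 41.2, 34.5 and 20.3 FPKM. The recovered 72 h group was the low one, at 0.59 of its wild type. Or13a, an antennal and larval receptor, was at 8.07, 6.41, 3.61 and 2.29 FPKM, lower in knockdown than in wild type at both ages and lower at 72 h than at 36 h. Or83a, a larval receptor, was at 6.93, 4.82, 5.29 and 1.91 FPKM, with the recovered group again lowest. Or22a and Or22b, close paralogs expressed in the same antennal neuron and lying 539 bases apart, were at 2.99, 3.56, 3.26 and 2.26 FPKM and at 2.05, 2.15, 2.66 and 1.91 FPKM. Their levels stayed within 1.57-fold and 1.40-fold over the groups, and reads shared by such paralogs could have been divided between them.

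The other odorant receptors crossed 1 FPKM by a small margin. Or85f, an antennal receptor, was at 1.70, 1.11, 2.97 and 2.05 FPKM, and Or10a, an antennal receptor of aromatic esters, at 0.931, 0.596, 1.52 and 2.44. Or82a, a receptor of geranyl acetate, was at 0.467, 0.704, 1.27 and 1.17 FPKM, and the larval receptor Or45a at 0.481, 0.557, 1.65 and 0.976. For all 4 of these genes the 72 h value of a genotype was above its 36 h value. Or85d, a maxillary palp receptor, was at 0.308, 0, 1.29 and 0.0435 FPKM, and Or67d, the receptor of the male pheromone cis-vaccenyl acetate, at 1.02, 0.562, 0.0575 and 0.305. Of the larval receptor list 6 of 25 genes reached 1 FPKM in some group, of the pheromone receptor list 1 of 4 and of the maxillary palp list 1 of 6.

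No gustatory receptor exceeded 4.16 FPKM. Gr39a, a bitter receptor gene with alternative first exons, was at 2.80, 3.19, 2.92 and 4.16 FPKM, and Gr32a, a bitter receptor also used in male courtship, at 2.26, 2.45, 2.68 and 2.39. These were the steadiest of the detected Gr genes, with ranges of 1.49-fold and 1.18-fold over the groups. Gr61a, a sugar receptor, was at 2.03, 1.68, 1.65 and 1.06 FPKM, lower in knockdown than in wild type at both ages. Gr28b, a locus with several isoforms known for warmth and light responses, was at 0.932, 0.319, 1.60 and 2.38 FPKM, so that the knockdown was below wild type at 36 h and the recovered group above wild type at 72 h.

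The remaining detected Gr genes were near the threshold in part of the groups. Gr10a, which is expressed together with Or10a in an antennal neuron, was at 1.18, 0.162, 2.06 and 2.16 FPKM, with the 36 h knockdown standing apart. Gr47b was at 1.89, 0.946, 0.470 and 0.0464 FPKM, lower in knockdown and lower at 72 h. Gr59d, a gene of bitter neurons, was at 0.0781, 0.325, 0 and 1.51, and reached 1 FPKM in the recovered group alone. Gr94a was at 0.730, 1.19, 0.228 and 0.299 FPKM, higher at 36 h than at 72 h in both genotypes. Of 8 listed sugar receptor genes 1 reached 1 FPKM in some group, and of 6 bitter receptor genes 2.

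Gustatory receptors with known special roles stayed low. The carbon dioxide receptor subunits Gr21a and Gr63a were at 0.0188, 0.114, 0.0186 and 0 FPKM and at 0.358, 0.578, 0.258 and 0.490. Gr43a, a fructose receptor that also acts in a few brain neurons as an internal nutrient sensor, was at 0.288, 0.231, 0.139 and 0.287 FPKM. Gr28a was at 0.122 and 0.0766 in wild type at 36 h and 72 h and was listed at 0 in both knockdown groups. An FPKM under 1 in whole CNS does not show that a gene was silent in rare cells.

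Among the ionotropic receptors the broadly expressed co-receptors Ir8a, Ir25a and Ir76b stayed under 1 FPKM, while some other antennal genes did not. Ir25a was at 0.350, 0.369, 0.359 and 0.278 FPKM, a narrow range under 1. Ir76b was listed at 0 in both 36 h groups and at 0.330 and 0.469 at 72 h, and Ir8a was at 0.0431 in wild type at 72 h and at 0 elsewhere. Ir68a and Ir93a, both needed for humidity sensing in the antenna together with Ir25a, were above all of these in most groups. Ir68a (chr3L:11226120-11229038) was at 4.51, 3.46, 7.70 and 7.25 FPKM, had no listed gene within 1 kb, and was higher at 72 h in both genotypes. Ir93a was at 4.37, 2.92, 1.17 and 0.452 FPKM, lower at 72 h and lower in knockdown at both ages.

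Ir76a, an antennal receptor of amines, had the highest Ir level and spanned 10.4-fold over the groups. It was at 9.85 FPKM in wild type and 20.1 in knockdown at 36 h, and at 1.94 and 3.30 at 72 h. Knockdown exceeded wild type at both ages, and both 36 h groups exceeded both 72 h groups. Ir62a, a divergent Ir without an established ligand, showed 7.65, 10.5, 4.34 and 7.15 FPKM, with the same order of knockdown over wild type at each age. Ir51b, another divergent Ir, was at 4.33 and 4.27 FPKM at 36 h and 2.003 and 1.971 at 72 h, with no gap between genotypes. Of 17 antennal Ir genes 3 reached 1 FPKM, and of Ir8a, Ir25a and Ir76b none.

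**Figure D2:**
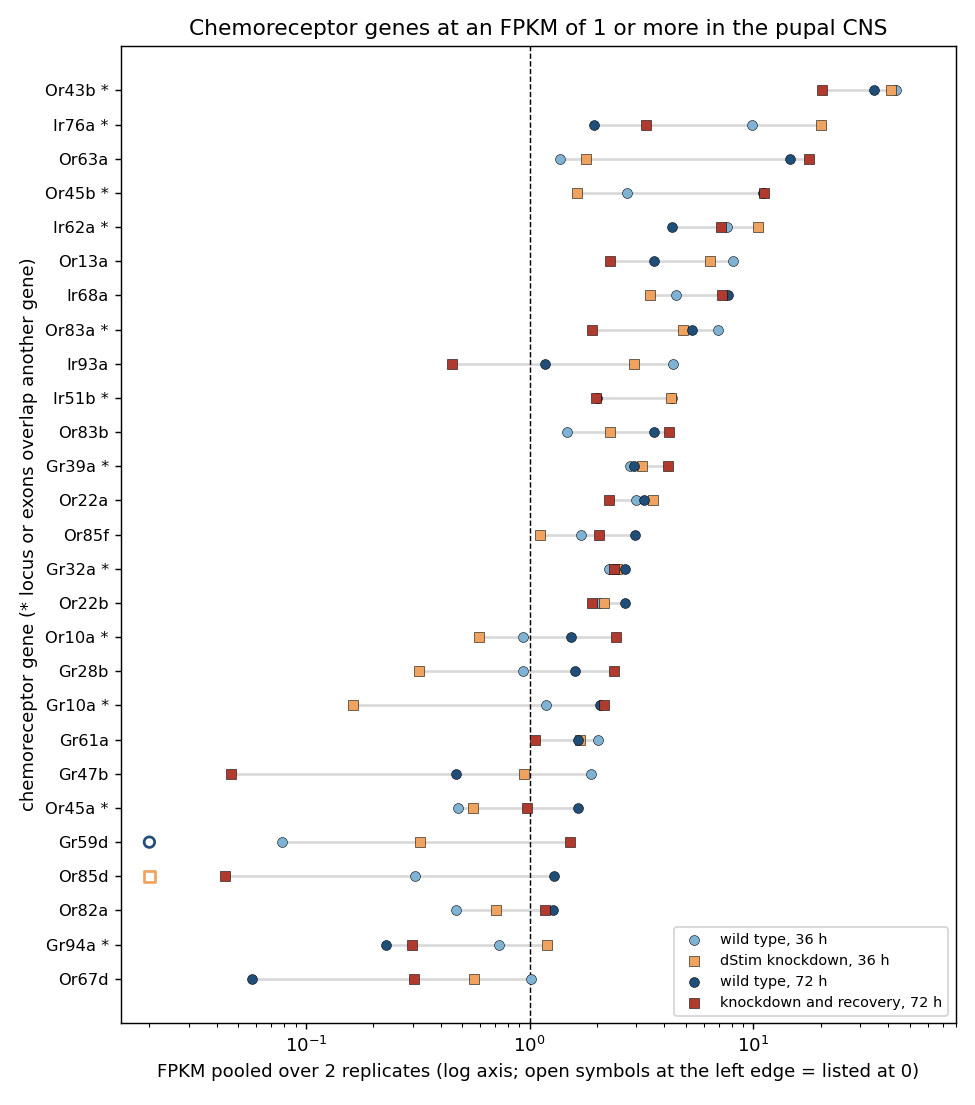
FPKM (log axis) of the 27 chemoreceptor genes at 1 or more in at least 1 group, with 1 symbol per pooled group of 2 replicates and open symbols for a listed 0. Asterisks mark the 12 genes whose locus or exons overlap another gene, among them Or43b, the member with the highest FPKM at 20.3 to 43.2.

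Just under the threshold were 5 members by their highest value. Ir100a was at 0.360, 0.976, 0.650 and 0.938 FPKM, Gr64c, a sugar receptor, at 0.942, 0.246, 0.126 and 0.371, and Or22c, a larval receptor, at 0.207, 0.243, 0.418 and 0.810. Or2a was at 0.350, 0.781, 0.409 and 0.317 FPKM. Ir21a, a receptor for cooling, was at 0.0707 and 0.0970 in wild type and at 0.791 and 0.717 in knockdown at 36 h and 72 h, so that both knockdown groups stood above both wild type groups, with ratios of 11.2 and 7.38 between values under 1 FPKM. In the current annotation 2087 exonic bases of Ir21a lie opposite the antisense RNA CR43609. Just inside the threshold were Or67d, with a highest value of 1.02, and Gr94a, with 1.19.

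Many detected members shared genomic space with other transcribed genes, which bears on their FPKM because the library kit did not mark strand. Reads from a gene and its antisense partner could not be told apart. Of the 27 detected members, 8 (29.6%) had a locus in the deposited tables that was merged with or overlapped a gene at 1 FPKM or more, against 20 of the 152 others (13.2%). Exons overlapped those of another gene in 7 of the 27 (25.9%), 5 of them on the opposite strand, against 22 of the 152 (14.5%), by the Ensembl 115 annotation. Either condition held for 12 of the 27 (44.4%), against 35 of the 152 others (23.0%), and for 5 of the 8 members that reached 5 FPKM. Neither held for 15 detected members, Or63a, Or13a, Ir68a, Ir93a and Or83b among them. No share of all genes was computed for these overlaps.

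Or43b was in the locus of lin19, now Cul1, a subunit of ubiquitin ligases that most cells use. Of the exonic bases of Or43b, 575 lie opposite lin19, which was at 114, 115, 74.0 and 87.5 FPKM. The ratio of Or43b to lin19 ran from 0.232 in the recovered group to 0.466 in wild type at 72 h. Or83a lay 454 bases from CG1172 in the deposited tables, and in the current annotation all its 1362 exonic bases lie opposite that gene. CG1172 was at 17.4, 18.4, 14.9 and 17.3 FPKM, and the ratio ran from 0.110 in the recovered group to 0.397 in wild type at 36 h. In the recovered group Or83a and Or43b were thus lower than in wild type at 72 h while the overlapping gene was higher.

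For other members the ratio to 1 neighbour was narrow. Ir51b lay in the locus of row, which was at 36.8, 37.5, 15.5 and 17.9 FPKM, and the ratio stayed between 0.110 and 0.129, a spread of 1.17-fold where Ir51b itself spanned 2.198-fold. Or13a lay 161 bases from CG42766, at 11.5, 8.67, 5.49 and 3.997 FPKM, with a ratio of 0.573 to 0.740. Or45b lay 580 bases from CG1809, at 1.67, 1.11, 5.85 and 7.87 FPKM, and the ratio of 1.42 to 1.88 spread by 1.33-fold where Or45b spanned 6.83-fold. All 1191 exonic bases of Or45b also lie opposite the antisense RNA CR45281. Whether these genes share transcripts or reads was not tested.

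Several more members kept a narrow ratio to 1 of their neighbours. Ir62a to CG12090, in the same locus, gave 0.254 to 0.340, and Gr61a to CG13902, 356 bases away, 0.0972 to 0.133. Gr39a to Mio, in the same locus, gave 0.0968 to 0.135. Ir62a itself spanned 2.43-fold, Gr61a 1.92-fold and Gr39a only 1.49-fold, near the 1.39-fold spread of its ratio to Mio. Ratios to their other neighbours spread more widely. Ir62a to Psa, cue and CG12091 spread by 2.08-fold, 3.09-fold and 4.75-fold, and Gr61a to CG13889 by 18.6-fold. Gr39a to crc spread by 1.96-fold, and Ir51b to CG8093 by 2.77-fold. The detected members formed 39 pairs with a gene at their locus or within 1 kb, and a ratio could be taken in 33 of them, since 6 held a value of 0. In 7 of the 33 the ratio kept within 1.5-fold over the 4 groups, and the median spread was 3.09-fold. These 7 were the 6 narrow ones just named and Or22a to Or22b, where Or22a itself spanned only 1.57-fold. No such share was taken over neighbouring genes in general. All 7 were among the 22 pairs with both genes at 1 FPKM or more in every group. Ir76a was the opposite case. The overlapping CG14102, which has 297 exonic bases on its opposite strand, was at 7.86, 7.79, 4.84 and 4.32 FPKM, and HLH106, now SREBP, at 54.9, 52.0, 64.1 and 68.6, so neither showed the difference of Ir76a between wild type and knockdown at 36 h. Gr32a overlapped CG6230 by 164 exonic bases on the opposite strand, with a ratio of 0.0903 to 0.213. Or10a and Gr10a share all 2819 exonic bases on 1 strand in the current annotation, while their deposited loci lay 319 bases apart. Whether their values are separate measurements was not tested.

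The neighbours not yet given, and the levels behind the ratios above, were as follows. In the loci of Or45a and Gr94a, CG13739 was at 15.8, 15.4, 35.5 and 60.3 FPKM and p53, the stress response transcription factor, at 6.46, 6.89, 4.80 and 4.28. CG12090 was at 29.0, 31.0, 17.1 and 22.6 FPKM, Mio at 28.9, 32.4, 23.9 and 30.9, CG6230 at 25.0, 26.2, 12.6 and 15.4, and CG13902 at 16.3, 12.6, 12.7 and 10.9. Far higher than their chemoreceptor were the ribosomal protein genes RpS30, 272 bases from Ir93a at 1365 to 1723 FPKM, and RpL34b, 759 bases from Or85f at 482 to 725. Also well above were CG3822 beside Ir93a at 141 to 180, crc beside Gr39a at 268 to 495, CG34117 beside Or85f at 53.5 to 64.5 and san beside Gr47b at 34.3 to 77.3 FPKM. Beside Ir62a lay CG12091 at 100.4 to 196.6, Psa at 59.7 to 69.7 and cue at 17.2 to 26.8 FPKM, and beside Or43b CG12159 at 37.5 to 49.0 and Kdm4A at 4.84 to 17.3. CG14103 and Gyc76C beside Ir76a were at 26.1 to 55.0 and 4.36 to 8.55 FPKM, and CG17119 beside Gr94a at 5.53 to 11.7. The neighbours CG13889, CG14921, CG8093, CG42529, Gr10b and Gr59c and the merged entries CG14101,CG42529 and CG42637,Gyc76C were at 3.23 FPKM or less.

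**Figure D3:**
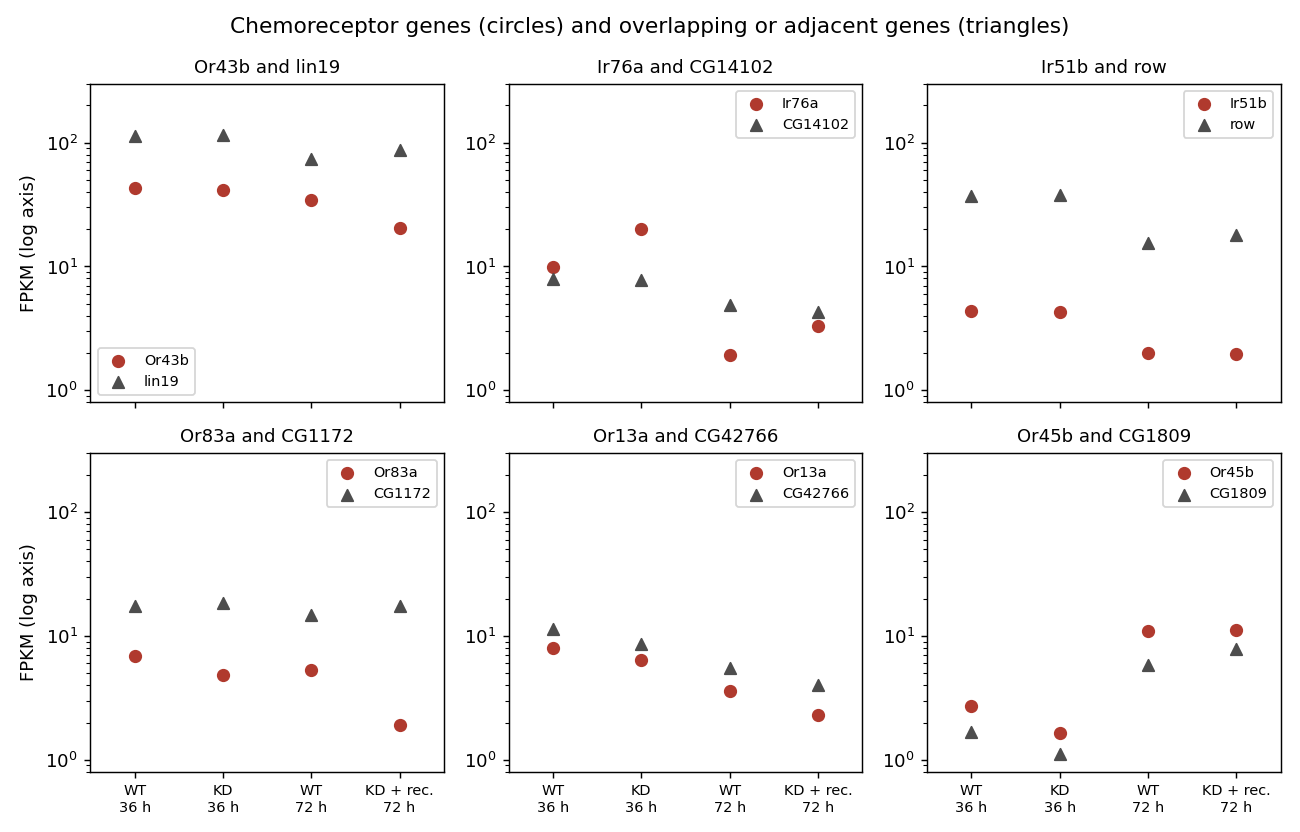
FPKM (log axis) of 6 chemoreceptor genes (circles) and of an overlapping or adjacent gene (triangles), with 1 value per pooled group. Ir51b and row, Or13a and CG42766, and Or45b and CG1809 kept ratios in a narrow range, spread by 1.17-fold to 1.33-fold, while Ir76a was at 20.1 in the 36 h knockdown where CG14102 was at 7.79.

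At 36 h APF, immediately after the knockdown, few detected members stood apart between the genotypes. Members were compared where at least 1 of the groups reached 1 FPKM, and a difference of at least 2-fold was counted. Ir76a was higher in knockdown CNS at 20.1 against 9.85 FPKM, and it was the only one of 21 members to be so, beside 3.07% of all genes compared. Gr10a was lower at 0.162 against 1.18 FPKM, the only one in that direction, beside 4.21% of all genes. The other 19 lay within 2-fold, Gr47b close to the limit at 0.50 of wild type and Or83b at 1.54. The median log2 ratio was -0.07 over the members and 0.00 over all genes.

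Signs were also counted whatever the level of a gene, with no replicate error to set against them. Of the 61 Gr genes at 36 h, 32 were lower in knockdown, 16 higher and 13 equal. For Or genes 24 were lower and 29 higher, for Ir genes 29 lower and 19 higher, and 50.2% of the unequal values were lower over all genes and 50.8% over genes under 1 FPKM in every group. The sugar receptor cluster Gr64a to Gr64f, singled out after its values were seen, summed to 3.99 FPKM in wild type and 1.62 in knockdown, with all 6 genes lower. In the current annotation the exons of Gr64b overlap those of Gr64c, and those of Gr64d overlap Gr64e, while Gr64a has no exonic overlap. As deposited, Gr64d and Gr64e share a locus, so their values may not be separate measurements. The deposited loci of Gr64b and Gr64c lay 16 bases apart. All 6 genes were under 1 FPKM. The sums of muscle and cuticle genes were also lower in this knockdown group, at 76.5 against 142 and 286 against 406 FPKM. At least 2-fold lower were 3 of 7 muscle genes compared and 6 of 7 cuticle and tracheal genes, and 0 were at least 2-fold higher. Sums of other tissue lists were higher or about equal in knockdown. Fat body genes were at 126 against 102 FPKM, photoreceptor genes at 213 against 195, male germline genes at 8.42 against 5.83 and hemocyte genes at 147 against 148. The part of other tissues in the chemoreceptor values was not tested.

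At 72 h APF, after recovery, the genotypes were compared by the same rule. Of 24 members compared, only Gr59d was higher, at 1.51 FPKM where wild type was listed at 0, beside 2.63% of all genes. Lower were 3, beside 8.96% of all genes. Or83a was at 1.91 against 5.29, Ir93a at 0.452 against 1.17 and Or85d at 0.0435 against 1.29 FPKM. The median log2 ratio was -0.11 over 23 members with a value above 0 in both groups and -0.02 over all genes.

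Levels near 1 FPKM differed more between these groups for genes in general. Among genes whose larger value was from 1 to under 5 FPKM, a range chosen after the data were seen, 28.1% were at least 2-fold lower in the recovered group, beside 2 of 18 members, and 4.84% higher, beside 1 of 18. At 36 h the same range held 12.5% lower, beside 1 of 16 members, and 9.41% higher, beside 0 of 16. Male germline genes summed to 53.8 FPKM in wild type at 72 h and 2.97 in the recovered group, with Mst87F at 20.4 and 0, and cuticle and tracheal genes to 716 and 267. Muscle genes summed to 1036 and 812 FPKM and fat body genes to 136 and 98.6. Higher in the recovered group were the sums of photoreceptor genes, at 498 and 664, and of hemocyte genes, at 117 and 128. The part of other tissues in the lower values of the recovered group was not tested. Among genes of any level, 34 Or genes were lower and 20 higher in the recovered group (63.0% lower), 21 Gr genes lower and 22 higher, and 21 Ir genes lower and 22 higher (48.8% lower in each). Over all genes 56.3% of unequal values were lower, and over genes under 1 FPKM in every group 67.9%, above the share of each family.

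**Figure D4:**
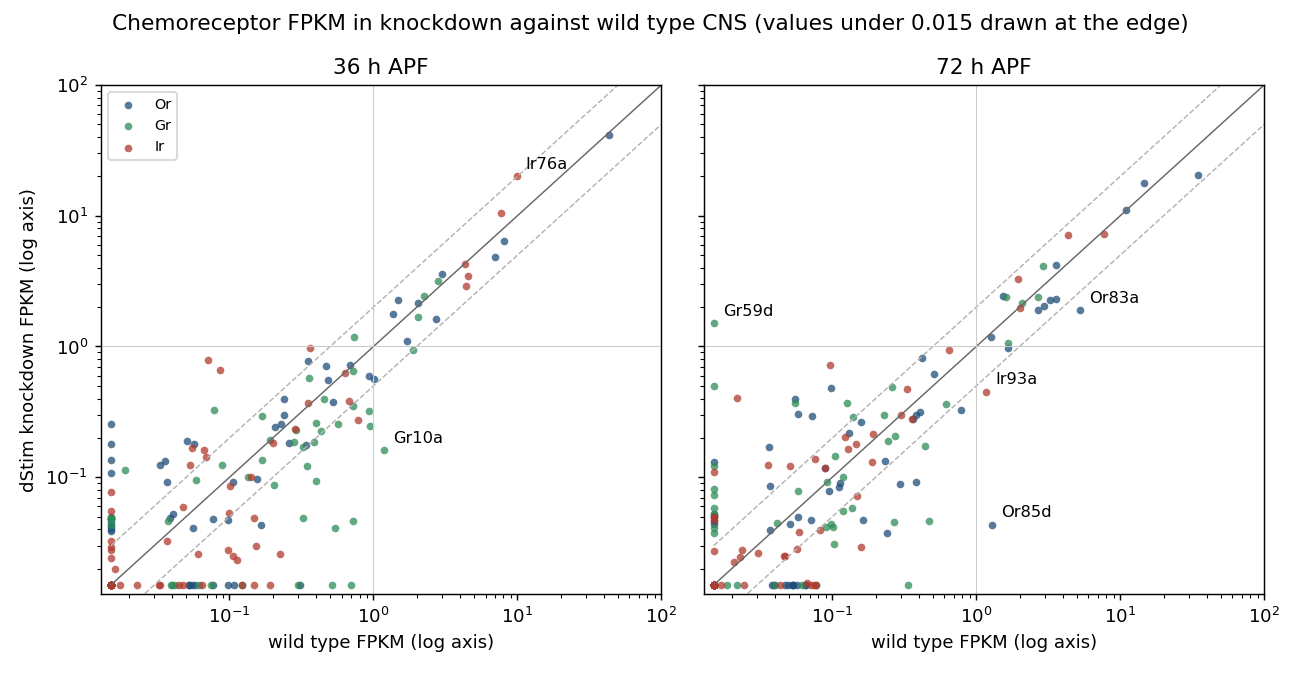
FPKM in knockdown against wild type CNS at 36 h (left) and 72 h APF (right) for all 179 members, both on log axes, with the solid line at equality, dashed lines at 2-fold and values under 0.015 drawn at the edge. Named genes differed by at least 2-fold with 1 FPKM or more in 1 of the groups: Ir76a and Gr10a at 36 h, and Gr59d, Or83a, Ir93a and Or85d at 72 h.

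The ages were also set side by side within each genotype. The tables of the 2 ages were normalized separately by the authors, and the median log2 ratio of the 8312 genes at 1 FPKM or more in all groups was -0.40 from 36 h to 72 h in wild type and -0.37 in the knockdown groups. In wild type, 6 of 25 members were at least 2-fold higher at 72 h (Or45a, Or45b, Or63a, Or82a, Or83b and Or85d), beside 17.5% of all genes, and 6 at least 2-fold lower (Gr47b, Ir51b, Ir76a, Ir93a, Or13a and Or67d), beside 25.8%. Relative to the median shift, 11 were higher and 4 lower, but no share of all genes was computed with this shift. From 1 to under 5 FPKM, 4 of 17 members were higher, beside 36.7% of genes, and 4 lower, beside 27.5%. The median log2 ratio of the members was 0.24 against -0.38 over all genes compared.

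The families were also counted apart, and no difference between them was tested. In wild type, of 14 Or genes compared, 6 were higher and 2 lower at 72 h, and the median log2 ratio was 0.76. Of 5 Ir genes none was at least 2-fold higher and 3 were lower, with a median of -1.11, and of 6 Gr genes 1 was lower, with a median of 0.15. Or63a had the widest ratio among the higher genes, at 10.7-fold, followed by Or85d at 4.17-fold and Or45b at 4.02-fold. Counting all levels, 35 Or genes were higher and 18 lower (33.96% lower), 10 Gr genes higher and 36 lower (78.3%), and 21 Ir genes higher and 28 lower (57.1%). Over all genes 59.0% of unequal values were lower, and over genes under 1 FPKM in every group 43.6%. The Gr64 cluster summed to 3.99 FPKM at 36 h and 0.848 at 72 h, with all 6 genes lower.

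In the knockdown genotype, 7 of 23 members were at least 2-fold higher after recovery than at 36 h (Gr10a, Gr28b, Gr59d, Ir68a, Or10a, Or45b and Or63a), beside 15.5% of all genes, and 7 lower (Gr94a, Ir51b, Ir76a, Ir93a, Or13a, Or43b and Or83a), beside 29.5%. Relative to the median shift, 10 were higher and 4 lower, again without a share of all genes to set beside them. From 1 to under 5 FPKM, 4 of 16 were higher, beside 21.2% of genes, and 4 lower, beside 39.9%. By family, 3 of 11 Or genes were higher and 3 lower, 3 of 7 Gr genes higher and 1 lower, and 1 of 5 Ir genes higher and 3 lower. Counting all levels, 24 Or genes were higher and 28 lower (53.8% lower), 18 Gr genes higher and 28 lower (60.9%), and 17 Ir genes higher and 30 lower (63.8%), where 63.9% were lower over all genes and 62.6% over genes under 1 FPKM in every group. Or63a was 9.89-fold and Or45b 6.83-fold higher. Gr10a was 13.3-fold higher, from the low knockdown value of 0.162 FPKM. The median log2 ratio was -0.03 over the members and -0.41 over all genes. Of 10 photoreceptor genes, 8 were at least 2-fold higher at 72 h and 1 lower in wild type, and 7 higher and 0 lower in the knockdown groups. The major rhodopsin gene ninaE was at 0.344 and 225 FPKM in wild type and at 0.203 and 322 in the knockdown groups. The lower one was chp, at 104 and 37.8 FPKM in wild type. Of 9 muscle genes, 8 were at least 2-fold higher and 1 lower in each genotype, with the sums given above. The part of photoreceptor and muscle genes in the age differences of the chemoreceptors was not tested.

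Among the genes that serve chemosensory neurons alongside the receptors, 10 of 17 in the list were found in the tables. Most of their summed level came from Obp99a, an odorant-binding protein that is not restricted to sensory organs, at 108, 74.8, 75.5 and 25.5 FPKM. Obp56d, another odorant-binding protein, was at 0.120, 0.246, 4.17 and 10.1 FPKM, higher at 72 h in both genotypes. The taste channel subunit gene ppk28 was at 2.40, 5.72, 0.538 and 1.62 FPKM and CheA29a at 2.61, 0.706, 0.416 and 0.399, and the fifth to reach 1 FPKM was Or83b itself. The other 5 stayed at 0.42 or less. These genes were named after their values were seen. Of the transcription factors that specify chemosensory neurons, acj6, which also acts in central neurons, was at 9.73, 9.43, 8.80 and 12.2 FPKM and pdm3 at 56.9, 65.0, 39.7 and 45.9. The olfactory and eye factor lz was at 4.31, 5.49, 0.768 and 0.686 FPKM and the proneural gene ato at 1.22, 0.948, 0.735 and 0.475, both lower at 72 h. The more broadly expressed vvl, Xbp1 and onecut were at 11.2 to 16.5, 159.8 to 179.9 and 94.8 to 121 FPKM.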

How the data were processed

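RNA-seq of pupal CNS was deposited as gene tables for 36 h and 72 h APF. As deposited, the authors' FPKM values hold 1 value per gene and group, computed by Cuffdiff 2.2.0 over 2 replicates after TopHat2 2.0.11 alignment to dm3, each table normalized on its own. The tables also hold fold changes, test statistics, p-values and q-values of the authors' comparison, as do separate edgeR tables with log2 fold changes. None of these was used. No column of values per sample was left out (0 columns).

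Members were selected by symbol, without their values, but the choice of these families and of the gene lists was made with earlier results of these data known. Named were all members at 1 FPKM or more in any group, the co-receptors, Gr21a, Gr63a, Gr43a, Gr28a, Gr28b, the 5 members next below 1, and genes overlapping or within 1 kb of members at 1 FPKM or more; the Gr64 cluster and odorant-binding proteins were added after their values were seen. Ratios were called at 2-fold with 1 FPKM or more in 1 group, and a gene listed at 0 in the other group was counted without a ratio. Median log2 ratios used genes above 0 in both groups. Symbols, strand and exon overlap came from Ensembl 115, to which all 179 members matched, 175 by the same symbol, and positions from the deposited tables in dm3. Cuffdiff marked 23 members at 36 h and 25 at 72 h as having enough reads to test. No test was made, because pooled values carry no replicate error. The step that applies the 2-fold rule was run on simulated data with set fold changes and no noise, and returned the calls that had been set. This checks the coding of the rule only, not its behaviour on noisy values near 1 FPKM. Python 3.11.15, pandas 2.3.3, NumPy 2.4.6 and matplotlib 3.10.9 were used. Alternatives were other minimums, folds, pseudocounts, centring on the median, and leaving out members that overlap other genes.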

Additional observations from a re-analysis of the deposited data

How the results depend on the processing

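The number of members detected depended on the minimum. With 0.5 FPKM it was 36 in wild type and 31 in knockdown at 36 h, and 49 in any group. With any value above 0 it was 128, 123, 121 and 119 in the 4 groups and 162 in any, and with 2 FPKM it was 15 in wild type at 72 h. Without members whose locus overlapped a gene at 1 FPKM or more, 19 of the 27 were left, and without those with exonic overlap, an alternative chosen after seeing the data, 20. Members at least 2-fold apart numbered 2 for knockdown against wild type at 36 h, but 15 with a minimum of 0.5, 1 with 2, 86 with none, 8 at 1.5-fold, 1 at 3-fold and 0 with a pseudocount of 1. At 72 h there were 4, but 1 with a minimum of 2, 75 with none, 11 at 1.5-fold and 2 at 3-fold. From 36 h to 72 h in wild type there were 12, but 28 with a minimum of 0.5, 7 with 2, 102 with none and 4 with a pseudocount of 1. In the knockdown groups there were 14, but 92 with no minimum, 9 at 3-fold and 9 with a pseudocount of 1. Of 312 recomputed log2 ratios of the named members 5 changed sign, all on centring by the median shift between the ages and none among those at least 2-fold apart: Gr61a, Or43b and Or83a from 36 h to 72 h in wild type, at 0.11, 0.08 and 0.01 after centring, and Gr32a and Or22b in the knockdown groups, at 0.34 and 0.20. No paired analysis was possible because the values used are pooled over replicates, and for the same reason no replicate could be left out. Most members lie at levels where few reads decide a value, and the counts behind them are unknown here.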
